A study of Mus musculus with 14 samples.

Results

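The ascending aorta of mice given β-aminopropionitrile (BAPN) together with Cilengitide was compared with that of mice given BAPN alone. The labels placed 7 of the study's 14 bulk RNA-seq libraries in this comparison, 4 of BAPN and 3 of BAPN+Cilengitide. Of the 32289 genes in the deposited table, 12572 had an FPKM (fragments counted on a transcript, corrected for its length and the depth) of 1 or more in at least 3 of these 7 libraries and were tested. All mice were labelled C57BL/6, and tissue was taken in week 6 of the model. Both groups received BAPN, so the comparison concerns what was added to it. The labels give no dose of either agent, and neither age nor sex of the mice. They do not say how many animals went into a library, and the p-values therefore cover the spread among these libraries, which may be technical. The other libraries, 3 of PBS and 4 of BAPN with SB273005, appear below as levels set beside these. SB273005 is also compared with BAPN and with Cilengitide near the end, in 1 fit over all 14 libraries. The study's title names integrin αV as a possible target in aortic aneurysm and dissection, and this comparison asks what an αV inhibitor does to transcripts of the BAPN-fed aorta.

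BAPN blocks the lysyl oxidases, the enzymes that cross-link collagen and elastin, and young mice fed with it are known to develop aneurysm and dissection of the thoracic aorta. Integrins are pairs of an α and a β subunit that tie cells to the matrix. The αV subunit pairs with β1, β3, β5, β6 or β8, and these pairs recognise the tripeptide Arg-Gly-Asp (RGD) in matrix proteins such as fibronectin, osteopontin and vitronectin. Some αV integrins also bind the RGD of the latency peptide of TGF-β and release the active cytokine. Cilengitide is a cyclic RGD pentapeptide that competes for this site, chiefly on αVβ3 and αVβ5. It acts on the proteins, and the data here are transcript levels only.

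The RGD-coding stretch of several ligands is shown because it is the motif that Cilengitide imitates. Each line gives 45 bases of the coding sequence of the gene's longest GENCODE vM21 reading frame (GRCm38, the assembly also called mm10), 5′ to 3′ on the coding strand, with the 9 bases that encode RGD in capitals.
Spp1: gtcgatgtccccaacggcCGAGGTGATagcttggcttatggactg
Fn1: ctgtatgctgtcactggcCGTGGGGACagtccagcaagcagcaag
Fbln5: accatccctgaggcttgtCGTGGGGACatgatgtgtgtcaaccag
Tgfb1: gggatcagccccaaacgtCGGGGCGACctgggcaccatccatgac
Igfbp2: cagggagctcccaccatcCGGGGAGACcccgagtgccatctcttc
Comp: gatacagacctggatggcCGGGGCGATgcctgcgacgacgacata
The capitals lie in exons at chr5:104439481-104439489 for Spp1 (osteopontin, plus strand), chr1:71606746-71606754 for Fn1 (fibronectin, minus strand) and chr12:101809927-101809935 for Fbln5 (fibulin-5, minus strand). Those of Tgfb1, in the part that encodes the latency peptide, are at chr7:25697142-25697150 (plus strand), and those of Igfbp2 at chr1:72852085-72852093 (plus strand). Comp has its stretch at chr8:70377220-70377228 (plus strand).

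Total counts of the 7 libraries ran from 50948918 to 72584877, with no difference between the groups beyond their spread (exact permutation test, two-sided, p = 0.257, smallest possible p 0.0286). The tissue label was checked against smooth muscle markers, the main cell type of the aortic media: all 20 contractile genes of the list passed the filter, with a summed level of 10215 to 15139 FPKM in BAPN and 8504 to 11656 FPKM with Cilengitide. Markers of other tissues were also present. The skeletal muscle list summed to 212 to 1975 FPKM in BAPN and 239 to 588 with Cilengitide, the liver list to 53.7 to 148 and 50.1 to 60.3, and the cardiomyocyte list to 19.7 to 37 and 27.4 to 109.7. No member of these lists was at 0 in all 7 libraries. The class II histocompatibility gene H2-Ea, which is known to be silent in the C57BL/6 strain, had 83 to 130 counts in each of the 7 and in SB273005 replicate 4, and 0 counts in every PBS library and in SB273005 replicates 1 to 3. That parting does not run between BAPN and BAPN+Cilengitide, but it runs between both of them and PBS, so PBS levels below are given without a test.

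BAPN replicates 1 and 4 each stood apart from the other BAPN libraries, in different ways. On the first principal component of log2 CPM (38.8% of the variance) BAPN replicate 1 lay at -13.3, with the other BAPN libraries at 17.5 to 29.5 and the Cilengitide libraries at -37.9 to -2.62. The log2 CPM of BAPN replicate 1 correlated more closely with those of the Cilengitide libraries (Pearson's r across genes 0.978 to 0.984) than with those of the other BAPN libraries (0.969 to 0.975). These r are across genes, which are not independent replicates. On the second component (16.4%), BAPN replicate 4 lay at 32.4 and the other 6 libraries at -18.2 to 1.35. Over all genes tested, a Dixon criterion for 4 samples set BAPN replicate 1 apart from its group in 281 genes (2.24%), replicate 4 in 285 (2.27%), replicate 3 in 139 (1.11%) and replicate 2 in 104 (0.827%). Replicate 1 is the one that lies toward the Cilengitide group, so the results that rest most on it are given with and without it. For many lists, a library whose removal gave the lowest or highest median is also named. Libraries not named could move a median too. The proteoglycan median, 0.27 with all libraries, was 0.11 without BAPN replicate 3. The integrin median, -0.01 with all libraries, was 0.08 without Cilengitide replicate 1. The plot of list medians below shows the full span for each reported list.

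**Figure D1:**
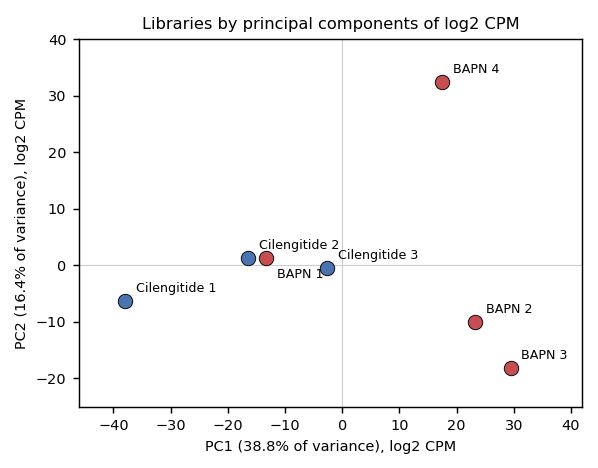
The 7 libraries on the first 2 principal components of log2 CPM of the tested genes, with BAPN in red, BAPN+Cilengitide in blue and each point labelled by replicate. BAPN replicate 1, at -13.3 on the first component, lies among the Cilengitide libraries, while the other BAPN libraries lie at 17.5 to 29.5. BAPN replicate 4 is alone on the second component, at 32.4.

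No gene differed between BAPN+Cilengitide and BAPN at an adjusted p under 0.05 (edgeR quasi-likelihood test, Benjamini-Hochberg adjustment over 12572 genes, 0% called in each direction). The smallest adjusted p was 0.416. At an unadjusted p under 0.05 there were 707 genes with higher values under Cilengitide (5.62%) and 739 with lower values (5.88%), 11.5% together. DESeq2 called 103 genes at the same adjusted threshold, 51 higher (0.406%) and 52 lower (0.414%). Their median absolute log2 difference was 0.77, and in 97 of them the groups did not overlap in FPKM. The typical standard error of a gene's log2 difference was 0.139 (median), so that a typical 95% interval reached 0.32 to either side. A difference of 1 log2 unit or more was seen in 192 genes (1.53%), of which 129 were higher and 63 lower under Cilengitide.

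How many genes parted the groups without overlap depended on the scale. In deposited FPKM, 345 genes were higher in every Cilengitide library than in any BAPN library (2.74%) and 991 were lower (7.88%), 10.6% together. In CPM after TMM scaling, the counts were 628 higher (5%) and 625 lower (4.97%), 9.97% together. The summed FPKM of a library was 297237 to 304890 in the Cilengitide group, 301741 in BAPN replicate 1 and 328683 to 343678 in the other BAPN libraries. List counts below have these FPKM shares as their background, and at an unadjusted p under 0.05 the shares of 5.62% higher and 5.88% lower. A list count near its share says nothing particular about the list. All log2 differences below are on the TMM scale, with a standard error, and all levels are deposited FPKM in replicate order.

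Without BAPN replicate 1, 8 genes passed the adjusted threshold (edgeR, 7 higher, 0.0557%, and 1 lower, 0.00795%). Of all genes, 16.2% then had an unadjusted p under 0.05, beside 11.5% with all libraries. List counts without this library, given below, have that larger share as their background, so part of any rise in them is shared by all genes. The 7 genes with higher values were Cthrc1, Fst, Cpxm2, Pdgfrl, Mmp2, Gpr176 and Sox4. These genes and Hnrnpa3, the 1 with lower values, are named here because they passed in this subset, after their values were seen. Cthrc1 encodes a secreted collagen triple helix repeat protein known from injured arteries. Its level was 92.5, 4.55, 4.27 and 4.38 FPKM in BAPN and 27.9, 46 and 45.6 with Cilengitide. BAPN replicate 1 was thus the highest of the 7 libraries, and the other 3 BAPN libraries were lower than every Cilengitide library. The log2 difference was 0.66 ± 1.10 with all libraries and 3.21 ± 0.21 without BAPN replicate 1 (edgeR adjusted p 0.00477). Fst, which encodes the activin antagonist follistatin, was at 13.5, 4.95, 5.26 and 4.73 in BAPN and 12.1, 11.5 and 10.1 with Cilengitide, a log2 difference of 0.71 ± 0.36, or 1.21 ± 0.11 without that library. Cpxm2, a carboxypeptidase-like secreted protein, was at 78.7, 17.7, 23.2 and 23.3 FPKM in BAPN and 87.8, 61.8 and 84.4 with Cilengitide. BAPN replicate 1 was the highest of the 7 libraries for Fst and lay within the Cilengitide range for Cpxm2. Gpr176, an orphan receptor, was at 4.69, 0.821, 1.38 and 0.885 in BAPN and 11.2, 6.6 and 6.04 with Cilengitide, and here the groups did not overlap even with BAPN replicate 1 (log2 difference 2.08 ± 0.60, or 2.98 ± 0.31 without it).

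Hnrnpa3, which encodes an RNA-binding protein of the hnRNP A/B family, was at 1.3, 18.4, 17 and 16 FPKM in BAPN and 0.967, 1.05 and 1.25 with Cilengitide (log2 difference -3.56 ± 0.80, or -3.94 ± 0.13 without BAPN replicate 1). The same libraries parted in 1 transcript, ENSMUST00000111962, which the deposited transcript table lists at 0, 16.6, 16.4 and 16.6 FPKM in BAPN and 0, 0 and 0 with Cilengitide. A listed 0 beside a level near 16 FPKM can be a failed estimate. The gene's level also switched within other groups, with 1.41, 15.1 and 1.72 FPKM in PBS and 2.86, 10.9, 13 and 1.63 with SB273005. Reads shared with near-identical copies of such a gene could also be split in different ways, so its value is uncertain. Phc3, a Polycomb component and the 1 gene called when Cilengitide replicate 2 was left out, also held listed zeros: its transcript ENSMUST00000168645 was at 3.67, 4.14, 3.79 and 3.88 FPKM in BAPN and 0, 3.61 and 0 with Cilengitide.

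Of the genes for the integrin subunits that Cilengitide chiefly addresses, those of αV and β3 differed little between the groups. That of β5 had higher values and is given in the next paragraph. Itgav, the αV subunit (chr2:83724397-83806916, mm10), was at 10.8, 9.73, 9.69 and 9.58 FPKM in BAPN and 8.91, 8 and 9.32 with Cilengitide. Every Cilengitide library was below every BAPN library, but the log2 difference of -0.14 ± 0.08 had a 95% interval of -0.33 to 0.04. Itgb3, the β3 subunit, was at 16.6, 15.6, 13.6 and 15.5 FPKM in BAPN and 14.7, 14.4 and 14.3 with Cilengitide, with overlapping groups and a log2 difference of -0.04 ± 0.08 (95% interval -0.22 to 0.15). Itgb1, the β1 subunit shared by many integrins, was at 371, 386, 392 and 310.0 FPKM in BAPN and 325, 359 and 390.0 with Cilengitide, a log2 difference of 0.01 ± 0.13 (95% interval -0.29 to 0.32) whose sign turned under several of the alternative settings. For these 3 genes, the intervals leave out a doubling or a halving.

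Itgb5, the β5 subunit, was with Itgb1 the most abundant of the αV partners in FPKM. It was at 325, 218, 263 and 224 FPKM in BAPN and 351, 316 and 329.5 with Cilengitide, where BAPN replicate 1 lay within the Cilengitide range and the other 3 BAPN libraries below it. The log2 difference was 0.41 ± 0.15 (edgeR unadjusted p = 0.0256), or 0.53 ± 0.12 without BAPN replicate 1. In CPM after TMM scaling, every Cilengitide library was above every BAPN library (all genes, 5% higher). Itgb6 was at 0.0927 to 0.298 FPKM in BAPN and 0.236 to 0.25 with Cilengitide, and Itgb8 at 0.644 to 1.14 and 0.529 to 0.895. Both β6 and β8, the partners best known for activating TGF-β, were under the filter and not tested. Itga5, which pairs with β1 as the classical fibronectin receptor, was at 137, 262, 204 and 147 FPKM in BAPN and 115, 162 and 151 with Cilengitide (log2 difference -0.35 ± 0.25).

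Of 26 integrin genes listed, 18 were tested, and their median log2 difference was -0.01, beside 0.00 for all genes tested. At an unadjusted p under 0.05, 2 were higher and 1 lower (all genes, 5.62% and 5.88%), or 4 and 1 without BAPN replicate 1. Itga11, a collagen-binding subunit of fibroblasts, was at 8.21, 2, 2.52 and 1.8 FPKM in BAPN and 22.8, 8.92 and 7.76 with Cilengitide, a log2 difference of 1.90 ± 0.60. BAPN replicate 1 again lay with the Cilengitide libraries, and the difference was 2.67 ± 0.42 without it. Itga8, an RGD-binding subunit of smooth muscle, was at 255, 288, 359 and 278 FPKM in BAPN and 183, 185 and 269 with Cilengitide (log2 difference -0.44 ± 0.19). Itgam, the αM subunit of macrophages and neutrophils, was at 4.64, 2.24, 1.48 and 3.35 FPKM in BAPN and 6.83, 4.92 and 3.29 with Cilengitide, with overlapping groups.

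**Figure D2:**
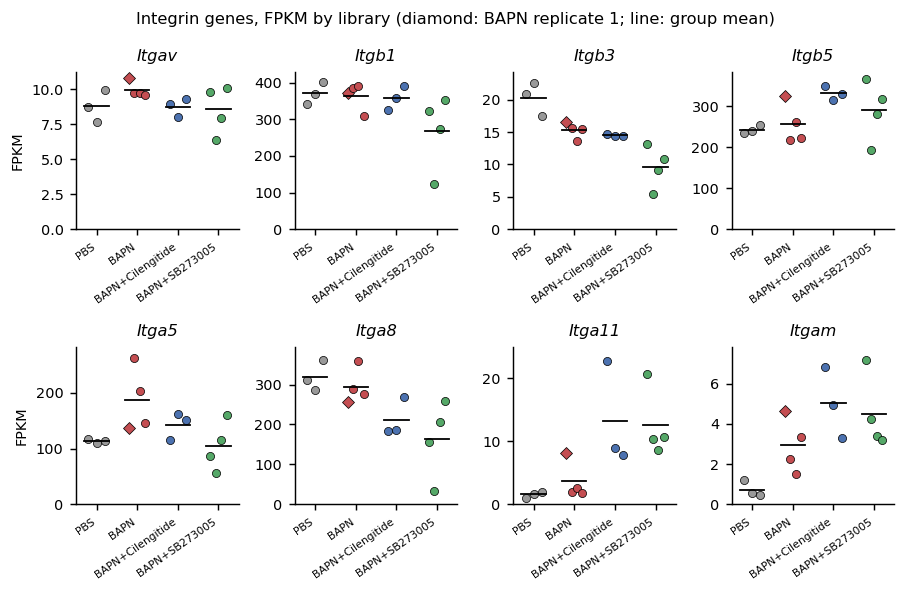
FPKM of 8 integrin genes in each library of the 4 groups, with a line at the group mean and a diamond for BAPN replicate 1. Itgav, Itgb1 and Itgb3 are at like levels in BAPN and BAPN+Cilengitide, and BAPN replicate 1 is the highest BAPN library for Itgb5 and Itga11.

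The RGD ligands on the receptor's other side lay mostly at higher levels under Cilengitide. Of 25 listed, 19 were tested: 6 were higher at an unadjusted p under 0.05 (all genes, 5.62%) and 0 lower, with a median log2 difference of 0.24. Without BAPN replicate 1 the median was 0.40, and 10 were higher. Fn1 was at 326, 193, 239.7 and 214 FPKM in BAPN and 712, 357 and 304 with Cilengitide. Cilengitide replicate 1 was the highest library, and BAPN replicate 1 lay between Cilengitide replicates 2 and 3. The log2 difference was 0.96 ± 0.31 (1.94-fold, 95% interval 0.24 to 1.68, edgeR adjusted p 0.416), or 0.49 without Cilengitide replicate 1. Spp1, or osteopontin, made by macrophages and by bone and smooth muscle cells, was at 121, 40.1, 41.3 and 38.3 FPKM in BAPN and 323, 129 and 64.4 with Cilengitide. That is a log2 difference of 1.57 ± 0.59, or 2.14 ± 0.52 without BAPN replicate 1, from groups that overlapped through that library.

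Fbln5, an elastogenic glycoprotein of the elastic fibre, was at 247, 152, 188 and 154 FPKM in BAPN and 317, 252 and 276 with Cilengitide. It was the 1 tested ligand whose groups did not overlap, with a log2 difference of 0.65 ± 0.19 and 0.80 ± 0.14 without BAPN replicate 1. Igfbp2, an IGF-binding protein with an RGD, was at 184, 212, 199.9 and 86.1 FPKM in BAPN and 738, 332 and 210.0 with Cilengitide, with Cilengitide replicate 1 far above the rest (log2 difference 1.36 ± 0.44). Tnc, or tenascin-C, is on the ligand list and among the 6, but its longest coding sequence in mouse held no RGD codons. It was at 26.7, 18, 20.2 and 13.3 FPKM in BAPN and 51.2, 28.2 and 24.4 with Cilengitide (log2 difference 0.87 ± 0.29). Tgfb1, whose latency peptide carries the RGD shown above, was at 14.8, 11.7, 12.6 and 12 FPKM in BAPN and 21.4, 16.2 and 12.8 with Cilengitide (log2 difference 0.44 ± 0.17). Vtn, or vitronectin, was under the filter at 0.339 to 2.99 FPKM in BAPN and 0.441 to 0.8286 with Cilengitide.

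The RGD codons themselves were looked for in frame on the coding strand, as CGN, AGA or AGG, then GGN, then GAC or GAT, in the longest coding sequence of each gene. A coding sequence was found for 11285 of the 12572 tested genes, and 975 of them (8.64%) held the codons. Their median log2 difference was 0.01, beside 0.00 for the 10310 genes without them. Among the genes with the codons, 81 were higher (8.31%) and 62 lower (6.36%) at an unadjusted p under 0.05. Among those without, 587 were higher (5.69%) and 622 lower (6.03%), and the difference in these shares was not tested. Of the 19 tested ligands, 16 held the codons, with a median of 0.29 and 5 higher at that p. Adam15, Ltbp1 and Tnc were the 3 without them. The codons are a description of the sequence and do not show that an integrin binds there.

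Several cartilage and bone matrix genes had higher values under Cilengitide. Of 24 chondro-osteogenic genes, 16 were tested. At an unadjusted p under 0.05, 9 were higher and 0 lower, the groups did not overlap in 6 (all genes, 2.74%), and DESeq2 called 2. The list's median log2 difference was 0.70, or 0.43 without Cilengitide replicate 1, the lowest median with any library left out. Comp, cartilage oligomeric matrix protein, a thrombospondin that smooth muscle and cartilage cells secrete (chr8:70373558-70382066), was at 41.7, 29.1, 34.6 and 27.2 FPKM in BAPN and 260.4, 99.5 and 76.6 with Cilengitide. Every Cilengitide library was above every BAPN library, BAPN replicate 1 included. The log2 difference was 2.18 ± 0.39 (4.52-fold, edgeR adjusted p 0.416, DESeq2 adjusted p 0.00676), or 1.46 without Cilengitide replicate 1, and its level in PBS was 10.2, 11.1 and 11.

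Mgp, the matrix Gla protein that keeps the arterial media from calcifying, was at 2155, 1422, 1692 and 1099 FPKM in BAPN and 3754, 3633 and 2328 with Cilengitide, again without overlap. The log2 difference was 1.07 ± 0.26 (DESeq2 adjusted p 0.00676), and PBS was at 1764, 1465 and 1426. Chad, or chondroadherin, a cartilage protein that binds integrin and collagen, was at 7.18, 8.62, 1.88 and 2.57 FPKM in BAPN and 18.7, 12.3 and 19.5 with Cilengitide (log2 difference 1.77 ± 0.50). Col2a1, the collagen of cartilage, was at 1.32, 0.434, 0.252 and 0.345 FPKM in BAPN and 47.2, 2.35 and 1.57 with Cilengitide. The level near 47 FPKM came from Cilengitide replicate 1 alone, and the log2 difference of 4.89 ± 1.24 was 1.79 without that library. Col10a1, the collagen of hypertrophic cartilage, was also far highest in Cilengitide replicate 1, at 7.75, 0.834, 0.858 and 0.946 FPKM in BAPN and 132, 7.83 and 2.98 with Cilengitide. Its groups overlapped through BAPN replicate 1, and the log2 difference of 4.23 ± 1.39 was 5.78 ± 1.44 without that BAPN library. Acan, or aggrecan, was at 14.9, 11.8, 19.3 and 10.9 FPKM in BAPN and 39.4, 20.2 and 15.6 with Cilengitide, with overlapping groups.

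Lysyl oxidases, the enzymes that BAPN blocks, all had positive differences: the 5 tested had a median of 0.40, and 2 had an unadjusted p under 0.05, or 4 without BAPN replicate 1. Lox was at 258, 115, 105 and 93 FPKM in BAPN and 191, 183 and 205 with Cilengitide. BAPN replicate 1 was the highest of the 7 libraries and the other 3 BAPN libraries were the lowest, so the log2 difference was 0.48 ± 0.33 with it and 0.92 ± 0.12 without it (edgeR adjusted p 0.0537). Loxl3 was at 33.4, 25.9, 27.6 and 23.1 FPKM in BAPN and 47.8, 40.2 and 34.9 with Cilengitide, without overlap (log2 difference 0.62 ± 0.15, DESeq2 adjusted p 0.031). Loxl1, the family member that elastic fibre upkeep depends on, was at 278, 206, 200 and 177 FPKM in BAPN and 283, 269 and 273 with Cilengitide (log2 difference 0.40 ± 0.15). PBS lay at 45.7, 42.8 and 69.3 FPKM for Lox and 177, 179 and 171 for Loxl1.

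Eln, elastin, was at 3037, 1342, 1373 and 1237 FPKM in BAPN and 3513, 2288 and 3043 with Cilengitide, with PBS at 1146, 1129.6 and 1017. BAPN replicate 1 was far above the other BAPN libraries and within the Cilengitide range. The log2 difference was 0.80 ± 0.35 (95% interval 0.00 to 1.60), or 1.19 ± 0.20 without that library. Of 17 elastic fibre genes tested, 3 were higher and 1 lower at an unadjusted p under 0.05 (median 0.20). With BAPN replicate 1 left out, 9 were higher and 2 lower. Ltbp2 and Ltbp3, latent TGF-β binding proteins of the microfibrils, were 2 of those higher. Ltbp2 was at 119, 54.8, 69.4 and 44.1 FPKM in BAPN and 167, 151 and 115 with Cilengitide, and Ltbp3 at 99.6, 72, 84.2 and 80.3 in BAPN and 108, 103 and 102 with Cilengitide. Adamtsl4, a microfibril-associated protein, was the lower one, at 11.6, 14.2, 11.1 and 15.2 FPKM in BAPN and 9.9, 9.15 and 11.6 with Cilengitide.

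Fibrillar collagens depended on BAPN replicate 1. Of 9 tested, 1, Col2a1, was higher at an unadjusted p under 0.05 with all libraries (median log2 difference 0.42) and 7 were higher without that library (median 0.76). Col1a1, the α1 chain of type I collagen, was at 1024, 419.6, 466 and 536 FPKM in BAPN and 1362, 869 and 627 with Cilengitide, a log2 difference of 0.69 ± 0.36. BAPN replicate 1 lay above Cilengitide replicates 2 and 3 for this gene. Col1a2 was at 632, 293, 326 and 359.9 FPKM in BAPN and 771, 554 and 479.9 with Cilengitide, and Col5a2 at 118, 62, 69.8 and 64.9 in BAPN and 117, 103 and 86 with Cilengitide. In Col1a2 BAPN replicate 1 again lay above Cilengitide replicates 2 and 3, and in Col5a2 it was level with Cilengitide replicate 1, the highest of its group. Among 13 other collagens tested, 3 were higher and 0 lower at that p (median 0.09). The median was 0.06 without Cilengitide replicate 2 and 0.16 without BAPN replicate 3, and 5 were higher without BAPN replicate 1. Col8a1, a short-chain collagen of migrating smooth muscle cells, was at 34.2, 5.31, 6.86 and 3.64 FPKM in BAPN and 65, 26.6 and 24.4 with Cilengitide. Its log2 difference was 1.68 ± 0.77 with BAPN replicate 1 and 2.90 ± 0.43 without it.

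Proteoglycans did not move as one. Fmod, or fibromodulin, was at 158, 64.8, 69.5 and 74.1 FPKM in BAPN and 266, 165 and 155 with Cilengitide (log2 difference 1.14 ± 0.33, DESeq2 adjusted p 0.0432), the groups overlapping only through BAPN replicate 1. Bgn, or biglycan, was at 1392, 1053, 1233 and 1082 FPKM in BAPN and 1727, 1512 and 1384 with Cilengitide (log2 difference 0.42 ± 0.17). Ogn, or osteoglycin, lay the other way, at 107, 119, 143 and 114 FPKM in BAPN and 67.6, 60.9 and 108 with Cilengitide (log2 difference -0.58 ± 0.20), with Cilengitide replicate 3 just above the lowest BAPN library. Of 12 proteoglycan genes tested, 3 were higher and 1 lower at an unadjusted p under 0.05, and 5 were higher without BAPN replicate 1. The list also holds the large proteoglycan Acan, described above, which is among those higher. The median of the 12 was 0.27, or 0.05 without Cilengitide replicate 2. In the matricellular list, the count was 6 higher and 2 lower of 19, and 10 were higher without BAPN replicate 1. Its median was 0.50, or 0.30 without BAPN replicate 4. Thbs2, a thrombospondin, was among the former at 29.5, 9.91, 12.9 and 14.2 FPKM in BAPN and 66.2, 23.7 and 26.2 with Cilengitide. Tnxb, the tenascin of loose connective tissue, was among the latter at 18.5, 24.1, 16.2 and 28.7 FPKM in BAPN and 14.9, 13.5 and 15.9 with Cilengitide, without overlap.

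**Figure D3:**
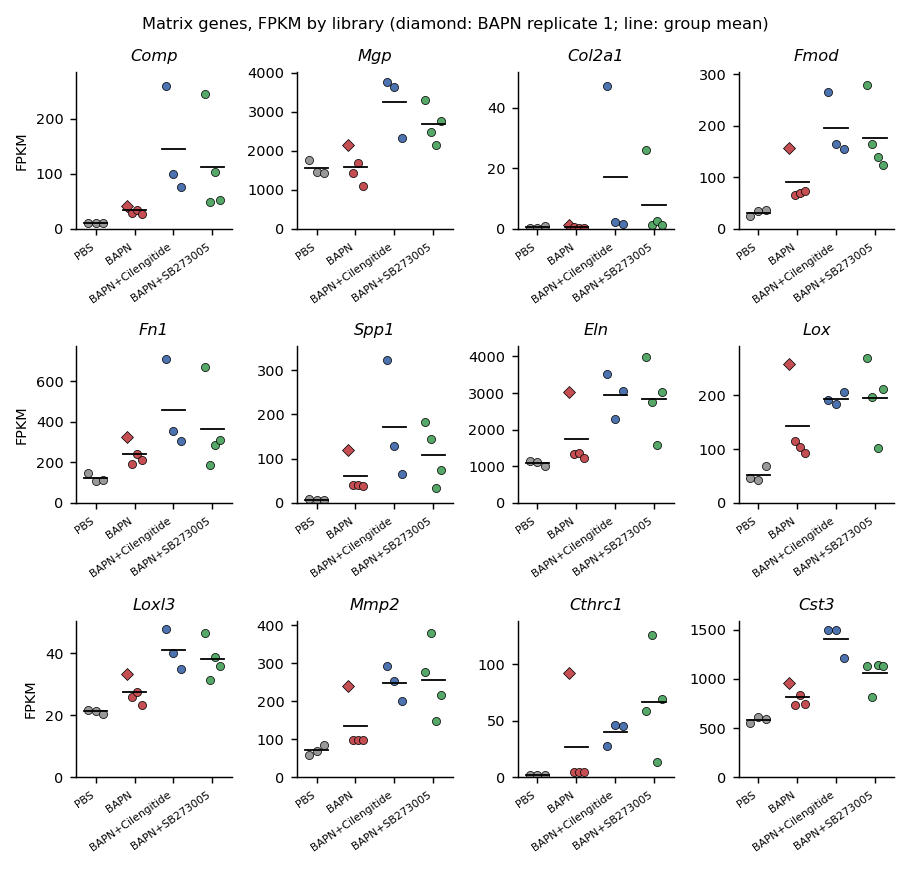
FPKM of 12 matrix genes in each library of the 4 groups, with a line at the group mean and a diamond for BAPN replicate 1. Comp, Mgp, Loxl3 and Cst3 are higher in every BAPN+Cilengitide library than in any BAPN library, while for Eln, Lox, Mmp2 and Cthrc1 the diamond lies within or above the range of the Cilengitide libraries.

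Lysosomal cysteine proteases and their inhibitors also had higher values. All 13 tested genes of the cathepsin and cystatin list had positive log2 differences, against 49.7% of all genes. Of them, 9 had an unadjusted p under 0.05 (all genes, 5.62% higher). The list's median was 0.32, and the groups did not overlap in 4 of them (all genes, 2.74% higher). Cst3, cystatin C, the secreted inhibitor of cathepsins (chr2:148871722-148875576), was at 961, 735, 836 and 741 FPKM in BAPN and 1498, 1495 and 1210.1 with Cilengitide. The lowest Cilengitide library was above the highest BAPN library, for a log2 difference of 0.82 ± 0.14 (1.77-fold, edgeR adjusted p 0.416, DESeq2 adjusted p 4.2e-05). PBS lay lower still, at 553, 612 and 594 FPKM. Cstb, the intracellular inhibitor cystatin B, was at 41.5, 39.5, 39.2 and 39.1 FPKM in BAPN and 46.7, 53.2 and 44.7 with Cilengitide (log2 difference 0.32 ± 0.09). Ctsh and Ctsf, both lysosomal proteases, had log2 differences of 0.40 ± 0.11 and 0.29 ± 0.08.

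Among matrix metalloproteinases, Mmp2, the gelatinase of smooth muscle cells and fibroblasts, was at 240.4, 99.1, 98.3 and 98.7 FPKM in BAPN and 293, 252 and 201 with Cilengitide. Its log2 difference was 0.94 ± 0.33 with all libraries and 1.37 ± 0.15 without BAPN replicate 1, where it passed narrowly (edgeR adjusted p 0.04996). Mmp14, the membrane protease that activates Mmp2, was at 19.8, 8.33, 7.48 and 12.2 FPKM in BAPN and 25.7, 18.8 and 13.5 with Cilengitide (log2 difference 0.74 ± 0.34). Mmp17 lay the other way at 19.6, 24.2, 31.2 and 22.7 FPKM in BAPN and 16.8, 17.5 and 20.1 with Cilengitide (log2 difference -0.39 ± 0.16), and Mmp11 was at 6.58, 4.27, 4.98 and 5.46 in BAPN and 8.17, 5.21 and 4.88 with Cilengitide, with overlapping groups. Of 10 tested, 1 was higher and 1 lower at an unadjusted p under 0.05, and 2 were higher without BAPN replicate 1. The median of 0.17 was -0.05 without Cilengitide replicate 1 and 0.34 without Cilengitide replicate 3.

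Target genes of the pathways that αV integrins feed were mixed for TGF-β and mostly higher for YAP. Of 18 TGF-β target genes, 5 were higher and 0 lower at an unadjusted p under 0.05, with a median of 0.05 that was -0.17 without Cilengitide replicate 3 and 0.19 without Cilengitide replicate 1. Fn1, Itga11 and Ltbp2, described above, were among those higher. Of 16 genes of the YAP list, 7 were higher and 1 lower (median 0.28). Nuak2, a kinase that is a YAP target, was at 2.18, 2.1, 1.87 and 1.98 FPKM in BAPN and 3.48, 3.38 and 2.36 with Cilengitide, without overlap (log2 difference 0.64 ± 0.16). Wwtr1 encodes TAZ, a paralogue of YAP rather than a target. It was at 29.5, 25.9, 25 and 23.3 FPKM in BAPN and 29.5, 32.5 and 31.1 with Cilengitide. Ankrd1 was at 8.23, 11.9, 9.25 and 5.1 FPKM in BAPN and 28.3, 11.2 and 12.3 with Cilengitide.

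Focal adhesion genes, which encode the intracellular side of integrin adhesion, had a median of 0.07 over 27 tested. At an unadjusted p under 0.05, 3 were higher and 2 lower (all genes, 5.62% and 5.88%). Without BAPN replicate 1 the median was 0.03, with 4 higher and 4 lower, and it was 0.00 without BAPN replicate 4. Ptk2b, the kinase Pyk2, was at 5.14, 2.87, 2.62 and 2.45 FPKM in BAPN and 8.73, 9.19 and 5.65 with Cilengitide, above every BAPN library (log2 difference 1.31 ± 0.28, DESeq2 adjusted p 0.00257). Parvg, the parvin of blood cells, was at 1.27, 0.421, 0.44 and 0.67 FPKM in BAPN and 2.37, 1.93 and 0.893 with Cilengitide (log2 difference 1.35 ± 0.46). Vasp, an actin regulator, and Lims1, the adaptor PINCH1, lay lower in every Cilengitide library. Vasp was at 59.1, 64.1, 62.8 and 54.9 FPKM in BAPN and 47.8, 48.5 and 50.9 with Cilengitide, and Lims1 at 19.4, 21.1, 22.7 and 21 in BAPN and 16.1, 15.2 and 18.2 with Cilengitide, with log2 differences of -0.25 ± 0.09 and -0.31 ± 0.09.

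Contractile genes of smooth muscle had lower values in 18 of 20 cases, with 1 at an unadjusted p under 0.05 and a median log2 difference of -0.25, or -0.14 without BAPN replicate 3. In bulk tissue, fewer cells of a type and less RNA per cell cannot be told apart. Acta2, smooth muscle actin, was at 4206, 5533, 6417 and 4020.1 FPKM in BAPN and 3774, 4204 and 4658 with Cilengitide (log2 difference -0.22 ± 0.22), with overlapping groups. Its sign turned on a quantile-normalised scale. Myh11, the smooth muscle myosin heavy chain, was at 406, 555, 615 and 536 FPKM in BAPN and 337, 389 and 509.5 with Cilengitide (log2 difference -0.32 ± 0.21), and PBS was at 701, 749 and 809. Synpo2, an actin-binding protein, was at 29.9, 38.2, 38.6 and 34.8 FPKM in BAPN and 16, 22.7 and 32.9 with Cilengitide and had the unadjusted p under 0.05. Without BAPN replicate 1, 8 of the 20 were lower at that p (median -0.35).

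Regulators of smooth muscle identity were near 0, with a median of 0.07 over 18 that ran from -0.09 without Cilengitide replicate 3 to 0.13 without BAPN replicate 4. With BAPN replicate 1 left out, 3 were higher and 2 lower at an unadjusted p under 0.05. Notch3, the Notch receptor of mural cells, was the 1 of 18 at that p with all libraries, a share near that of all genes (5.62% higher). It was at 7.03, 5.58, 6.22 and 7.69 FPKM in BAPN and 24.1, 8.15 and 7.66 with Cilengitide, where replicate 1 was far above the others. Heyl, a Notch target, was at 36.1, 33.8, 40.9 and 47.5 FPKM in BAPN and 27.1, 32.1 and 34.8 with Cilengitide, with PBS above both at 79.2, 85.4 and 57.4.

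Macrophage markers mostly had higher values under Cilengitide, with a wide spread. Of 22 tested, 5 were higher and 1 lower at an unadjusted p under 0.05 with all libraries (all genes, 11.5% either way). Without BAPN replicate 1, 16 were higher (all genes, 16.2% either way). The median log2 difference was 0.66, with 0.41 as the lowest when a library was left out (Cilengitide replicate 1). Summed over the list, BAPN ran from 430.3 to 983 FPKM and Cilengitide from 654 to 1319, so the groups overlapped, and PBS ran from 205 to 398. Cd14, the LPS co-receptor, was at 12.9, 6.58, 7.94 and 9.54 FPKM in BAPN and 21.2, 19.6 and 11 with Cilengitide (log2 difference 0.95 ± 0.28). Fcer1g, the common Fc receptor γ chain, was at 28.5, 17.8, 15.3 and 22.2 FPKM in BAPN and 48.2, 42.7 and 22.4 with Cilengitide. In both genes Cilengitide replicate 3 lay within the BAPN range. Of the 22 markers, 17 had positive and 5 negative log2 differences. Cd163, the haemoglobin scavenger receptor of resident macrophages, was the 1 lower at an unadjusted p under 0.05. It was at 4.3, 6.06, 6.59 and 10.7 FPKM in BAPN and 2.97, 2.91 and 4.74 with Cilengitide (log2 difference -0.92 ± 0.31).

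All 14 tested genes of the lipid-handling macrophage list had positive differences, 4 with an unadjusted p under 0.05, or 8 without BAPN replicate 1. Their median of 0.61 was 0.27 without Cilengitide replicate 1. Lgals3, galectin-3, was at 28.2, 21.7, 25.7 and 21 FPKM in BAPN and 41.1, 42.3 and 28.6 with Cilengitide, without overlap (log2 difference 0.67 ± 0.16, DESeq2 adjusted p 0.0419). Apoe was at 503, 226, 259 and 378 FPKM in BAPN and 892, 644 and 419.8 with Cilengitide (log2 difference 0.98 ± 0.32), and Gpnmb at 5.4, 2.89, 3.64 and 4.38 in BAPN and 7.13, 5.79 and 4.89 with Cilengitide. Among 24 chemokine and receptor genes, 15 had positive and 9 negative log2 differences. At that p, 6 were higher and 1 lower, with a list median of 0.50, or 0.30 without Cilengitide replicate 1. Without BAPN replicate 1, 9 were higher and 1 lower (median 0.70). Cxcr4, the receptor of Cxcl12, was at 1.97, 0.596, 0.602 and 1.19 FPKM in BAPN and 6.64, 3 and 2.7 with Cilengitide, without overlap (log2 difference 1.96 ± 0.49, DESeq2 adjusted p 0.0125). Ccl12, a monocyte attractant, was at 5.21, 6.3, 4.31 and 3.38 FPKM in BAPN and 8.7, 7.12 and 7.29 with Cilengitide, and Cx3cl1, fractalkine, at 16.7, 9.48, 8.37 and 9.77 in BAPN and 28.7, 24.1 and 12.9 with Cilengitide. Cxcl16 was at 14.5, 6.91, 5.68 and 6.89 FPKM in BAPN and 19, 17.3 and 9.11 with Cilengitide. Beside these, 11 of 18 neutrophil markers and 10 of 16 T and NK cell markers were under 1 FPKM in all 7 libraries.

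Endothelial markers lay on both sides of 0. Their median log2 difference was -0.09 over 18 tested, with 1 higher and 1 lower at an unadjusted p under 0.05, and it ran from -0.53 without Cilengitide replicate 1 to 0.09 without Cilengitide replicate 3. With BAPN replicate 1 left out, 2 were higher and 2 lower. Pecam1, or CD31, was at 28.1, 36.9, 32.6 and 45 FPKM in BAPN and 32.1, 18.4 and 22.4 with Cilengitide (log2 difference -0.51 ± 0.22), and Eng, or endoglin, at 46.2, 43.3, 42 and 45.1 in BAPN and 57.6, 46.9 and 48.2 with Cilengitide (log2 difference 0.25 ± 0.09). The list of ligands linked to vessel growth had 5 of 22 higher at that p and 0 lower, with a median of 0.29, or 0.14 without Cilengitide replicate 1. Fgf7 was at 2.62, 2.53, 2.22 and 1.66 FPKM in BAPN and 4.85, 3.37 and 4.02 with Cilengitide, without overlap (log2 difference 0.89 ± 0.19, DESeq2 adjusted p 0.0082). Pdgfc was at 12.2, 8.49, 11.7 and 8.03 FPKM in BAPN and 23.2, 14.5 and 12.8 with Cilengitide, and Angpt2, the antagonist of the Tie2 receptor, at 15.8, 9.59, 11.2 and 14.9 in BAPN and 41.8, 16.7 and 15.9 with Cilengitide. Both parted the groups without overlap.

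**Figure D4:**
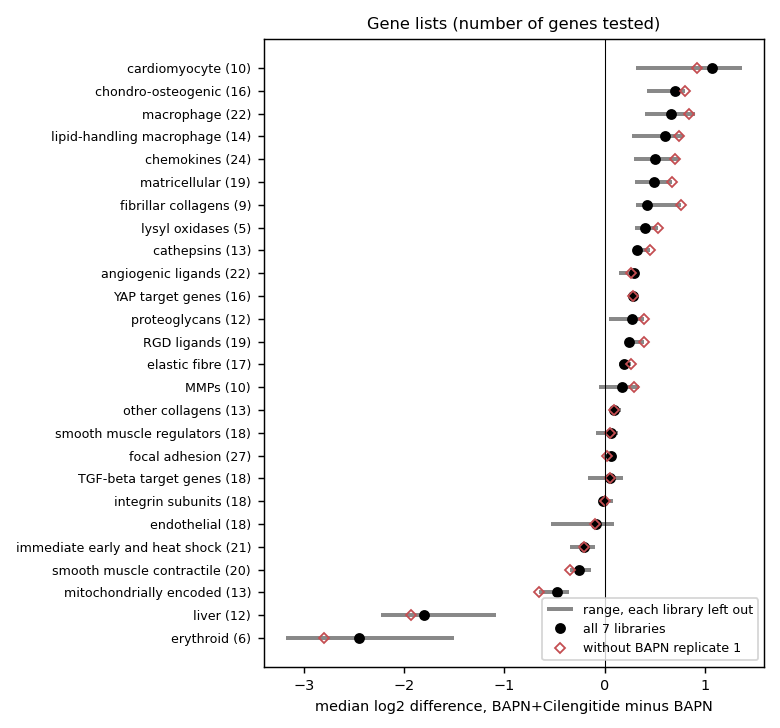
Median log2 difference (BAPN+Cilengitide minus BAPN) of the reported gene lists, with the number of genes tested in brackets. Black points use all 7 libraries, red diamonds leave out BAPN replicate 1, and grey bars span the medians with each library left out. The chondro-osteogenic list is at 0.70 and the integrin list at -0.01, while the erythroid, liver and cardiomyocyte lists have the widest bars.

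Transcripts of blood, liver and heart differed in level between the libraries and, in part, between the groups. Of 6 erythroid genes tested, 5 were lower under Cilengitide at an unadjusted p under 0.05 (all genes, 5.88%), with a median of -2.45 that was -1.50 without BAPN replicate 3. Hbb-bs, a β-globin gene, was at 159, 510.4, 1869 and 521 FPKM in BAPN and 233, 116 and 52 with Cilengitide. BAPN replicate 3 was the highest, and BAPN replicate 1 lay within the Cilengitide range. Of 12 liver genes, 7 were lower and 1 higher, with a median of -1.81, or -1.08 without BAPN replicate 3. Mup20, a urinary protein of the liver, was at 9.51, 4.5, 17.2 and 3.97 FPKM in BAPN and 0.728, 1.89 and 0.311 with Cilengitide (log2 difference -3.11 ± 0.75, DESeq2 adjusted p 0.000759), and Alb, albumin, at 8.02, 5.49, 22.9 and 5.73 in BAPN and 2.03, 3.61 and 1.19 with Cilengitide, both without overlap. PBS ran from 6.24 to 123 FPKM for Alb, and Cps1 was the 1 liver marker under 1 FPKM in all 7 libraries.

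Cardiomyocyte markers lay the other way: 3 of 10 tested were higher at an unadjusted p under 0.05, with a median of 1.08 that was 0.31 without Cilengitide replicate 1. Without BAPN replicate 1, 1 was higher. Myl7, the atrial myosin light chain, was at 2.26, 4.84, 5.98 and 3.48 FPKM in BAPN and 31.7, 3.34 and 12.8 with Cilengitide, highest in replicate 1. Myh7, Nppa, Nppb and Ttn were under 1 FPKM in all 7 libraries. All 13 mitochondrially encoded genes had negative differences, 4 of them at that p with all libraries and 11 without BAPN replicate 1 (median -0.48 and -0.66). mt-Atp6 was at 3620.2, 6465, 4869 and 6932 FPKM in BAPN and 3883, 2992 and 3123 with Cilengitide (log2 difference -0.67 ± 0.24), where BAPN replicate 1 was again within the Cilengitide range. Stress genes of the immediate early and heat shock list had 6 of 21 lower and 0 higher. Their median of -0.21 was -0.34 without Cilengitide replicate 3 and -0.10 without Cilengitide replicate 1. Atf3, a stress-induced transcription factor, was at 12.2, 47.5, 59.6 and 14.3 FPKM in BAPN and 9.02, 8.49 and 13.1 with Cilengitide, and Hspa1b, an inducible HSP70, at 29.6, 49.5, 35.8 and 100.1 in BAPN and 17.8, 24.5 and 27.3 with Cilengitide. The part of these tissue, mitochondrial and stress transcripts in the matrix and macrophage differences above was not tested.

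The genes that led in each direction were those with the smallest p among genes whose FPKM did not overlap, 8 each way. Predicted gene models, such as symbols of Gm plus digits or ending in Rik, were left out of this choice. They held stronger calls, such as Gm49380 (DESeq2 log2 difference -4.08, adjusted p 2.15e-08). The 8 each way were chosen for their difference, so their values are a description, and none passed the adjusted threshold in edgeR (adjusted p 0.416 for each). DESeq2 called all 16. Ntn4, netrin-4, a basement membrane protein, was at 16.1, 14.4, 15.6 and 14.8 FPKM in BAPN and 20.8, 19.6 and 21.8 with Cilengitide. Its log2 difference of 0.49 ± 0.07 was small, and so was the spread within each group (DESeq2 adjusted p 6.75e-05). Stk32b, a little-studied serine/threonine kinase, was at 4.54, 3.38, 4.09 and 4.35 FPKM in BAPN and 7.67, 6.95 and 6.26 with Cilengitide (log2 difference 0.81 ± 0.13), with PBS at 1.79, 1.84 and 2.47. Gab1, a docking protein of receptor tyrosine kinases, was at 8.7, 7.66, 8.85 and 8.14 FPKM in BAPN and 11.2, 10.4 and 11.3 with Cilengitide (log2 difference 0.44 ± 0.08).

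Zfp469, a zinc finger gene whose human counterpart is known from brittle cornea syndrome, a disorder of collagen, was at 0.835, 0.942, 0.648 and 0.889 FPKM in BAPN and 2.21, 2.48 and 1.24 with Cilengitide (log2 difference 1.30 ± 0.24). Every BAPN library was under 1 FPKM, so this gene passed the filter only through the Cilengitide libraries, the group where it is high. Its shorter transcript, ENSMUST00000055537, was listed at 3.07, 2.92 and 0.0903 FPKM in the Cilengitide libraries, so its transcripts did not keep 1 ratio. Hcls1, a cortactin relative of blood cells, was at 7.06, 5.56, 5.49 and 5.93 FPKM in BAPN and 12.3, 10.7 and 8.12 with Cilengitide (log2 difference 0.83 ± 0.15). Vill, a villin-like gene, was at 3.24, 2.25, 2.39 and 2.22 FPKM in BAPN and 5.74, 5.24 and 3.69 with Cilengitide (log2 difference 1.00 ± 0.19). For Zfp469, Vill and Hcls1, Cilengitide replicate 3 was the lowest of its group, yet above every BAPN library. Comp and Cst3, described above, complete the 8.

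Of the genes with lower values, Bmx, a Tec-family kinase of endothelium, was at 2.69, 3.29, 2.6 and 3.86 FPKM in BAPN and 1.53, 0.889 and 1.43 with Cilengitide (log2 difference -1.23 ± 0.23, DESeq2 adjusted p 0.000529). It has 1 annotated transcript. Kcnh2, the hERG potassium channel, was at 17.6, 20.7, 21.5 and 19.7 FPKM in BAPN and 13, 13.2 and 14.5 with Cilengitide (log2 difference -0.51 ± 0.10), with PBS higher than BAPN at 28.4, 28.5 and 26.1. Tub, the tubby protein, was at 5.14, 5.52, 6.34 and 6.84 FPKM in BAPN and 2.78, 3.4 and 4.03 with Cilengitide (log2 difference -0.77 ± 0.15). For Bmx and Kcnh2 the gap between the groups was wider than the whole range of the Cilengitide group.

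Grk3, a kinase that desensitises G protein-coupled receptors, was at 2.99, 2.7, 2.78 and 3.41 FPKM in BAPN and 1.4, 1.99 and 1.9 with Cilengitide. Slc6a9, the glycine transporter GlyT1, was at 8.29, 9.61, 8.4 and 8.91 FPKM in BAPN and 6.31, 5.8 and 6.99 with Cilengitide, and Aph1b, a γ-secretase subunit, at 3.46, 3.66, 3.82 and 4.29 in BAPN and 2.53, 2.67 and 2.64 with Cilengitide. Their log2 differences were -0.70 ± 0.15, -0.43 ± 0.09 and -0.50 ± 0.11. Nhsl2 was at 1.56, 1.63, 1.54 and 1.69 FPKM in BAPN and 1.07, 1.03 and 1.26 with Cilengitide, and Tia1, an RNA-binding protein of stress granules, at 1.66, 2.18, 2.26 and 1.77 in BAPN and 1.2, 1.12 and 1.33 with Cilengitide. Tia1 has 27 transcripts in the deposited table, and the most abundant of them was at 2.83, 0.426, 5.86 and 2.07 FPKM in BAPN and 3.76, 1.21 and 2.35 with Cilengitide, a spread much wider than that of the gene.

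**Figure D5:**
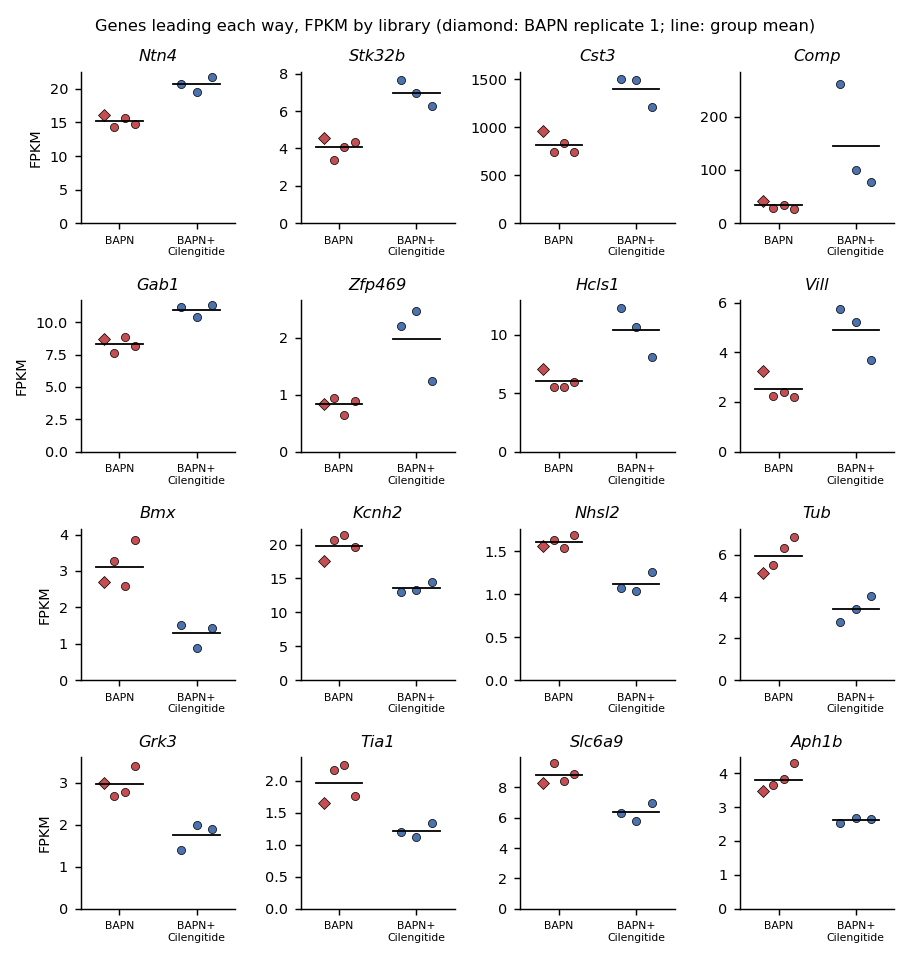
FPKM of the 16 genes that lead in each direction, by library, with BAPN in red, BAPN+Cilengitide in blue, a line at the group mean and a diamond for BAPN replicate 1. The genes were picked because their groups do not overlap, and in each the 3 Cilengitide libraries lie wholly above (first 8) or below (last 8) the 4 BAPN libraries.

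SB273005, a non-peptide αV antagonist, was given with BAPN to the other inhibitor group. Without doses in the labels, matched doses cannot be assumed, so their levels are set side by side, in 1 fit over all 14 libraries, and both differences from BAPN share the same 4 BAPN libraries. Between the compounds, 0 genes differed at an adjusted p under 0.05 (edgeR, 0% in each direction, smallest adjusted p 0.496), while 9.22% had an unadjusted p under 0.05 and DESeq2 called 19. SB273005 differed from BAPN in 10 genes (edgeR), 3 higher (0.0239%) and 7 lower (0.0557%), a count that went to 0 when only those groups were fitted. Since SB273005 replicates 1 to 3 lie on the other side of the H2-Ea parting, that parting and the compound cannot be fully told apart.

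Comp was at 245, 48.2, 104 and 52.1 FPKM with SB273005, and its log2 difference from BAPN was 1.81 ± 0.49, beside 2.17 for Cilengitide in the same fit. The difference between the compounds was 0.36 (95% interval -0.73 to 1.45). Eln was at 3981, 2743, 1589.8 and 3039.8 FPKM with SB273005, and the compounds differed by 0.02 (95% interval -0.79 to 0.84). For Mgp the difference between them was 0.25 (95% interval -0.28 to 0.79), and for Itgav 0.01 (95% interval -0.28 to 0.31). These intervals include 0 and are widest for Comp and Eln. None of them shows that the compounds act alike, which was not tested. Itgb3 was at 13.1, 5.44, 9.08 and 10.9 FPKM with SB273005, below every Cilengitide and BAPN library, and the compounds differed by 0.57 (95% interval 0.13 to 1.01) at an unadjusted p of 0.0144 that did not pass adjustment (edgeR adjusted p 0.496). Cst3 was at 1134, 815, 1141 and 1132 FPKM with SB273005, and the compounds differed by 0.39 (95% interval 0.05 to 0.73). Hspa1b was at 22.1, 19.2, 165 and 613 FPKM with SB273005, where replicates 3 and 4 were far above the rest.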

How the data were processed

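RNA of the ascending aorta was reverse transcribed and sequenced, and the submitters' processing notes name HISAT2 2.2.1, StringTie 2.1.6 and the mm10 build. For strand setting and annotation release, the sources used here give nothing. The authors deposited, for each gene and transcript, FPKM and an estimated count, the latter as whole numbers. Genes that reached 1 FPKM in 3 or more of the 7 libraries were tested on the deposited counts with edgeR 4.0.16 (R 4.3.3), using TMM scaling and the quasi-likelihood test. P-values were Benjamini-Hochberg adjusted with a threshold of 0.05. Standard errors were worked back from the log2 difference and its F statistic. DESeq2 1.42.0, limma 3.58.1 on log2(FPKM + 1) or log2(FPKM + 0.1), an FPKM minimum of 5, other scalings, a replicate block and leaving out each library were alternatives. Levels beside SB273005 came from 1 edgeR fit over all 14 libraries.

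Replicates differed by more than sampling noise (chi-square per degree of freedom 61.9 to 284 within groups). The genes and the 54 lists, of which 26 are reported, were chosen with earlier results of these data known. Genes named are 16 target and disease genes, 8 leading genes in each direction, and up to 4 members of each reported list by smallest p. The leading genes had the smallest p among genes that did not overlap, with predicted gene models left out. Another 8 (Cthrc1, Fst, Cpxm2, Pdgfrl, Gpr176, Sox4, Hnrnpa3 and Phc3) were added after their values were seen. The values of 1 gene that the rule names are not reported here. The statistics were tested on simulated data.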

Additional observations from a re-analysis of the deposited data

Results flagged for a closer look

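In 25 of 126 named genes, 1 BAPN library lay farther from the other 3 than Dixon's 95% critical value for 4 samples allows. Chance flags about 1 in 20 groups, but this count cannot be set against that share, because 8 of the named genes were added after calls that came with a library left out, 7 of them without BAPN replicate 1. Over all genes tested, BAPN replicate 1 was apart in 281 (2.24%) and BAPN replicate 4 in 285 (2.27%). Among the named genes, in 22 of the 25 the library was BAPN replicate 1, which was above the others in 21 and below them in 1.

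Among matrix genes, BAPN replicate 1 stood above the rest for Eln at 3037 FPKM, Lox at 258, Col5a2 at 118, Col8a1 at 34.2, Col12a1 at 4.91, Col10a1 at 7.75 and Col2a1 at 1.32. It was also the high library for Fmod at 158 FPKM, Spp1 at 121, Cthrc1 at 92.5, Cpxm2 at 78.7 and Mmp2 at 240.4. The integrin genes Itgav, at 10.8 FPKM, and Itga11, at 8.21, stood out in the same library. So did the secreted or signalling genes Cx3cl1 at 16.7 FPKM, Cxcl16 at 14.5, Fst at 13.5, Gpr176 at 4.69 and Ptk2b at 5.14, as well as Cstb at 41.5 and Vill at 3.24. Hnrnpa3 was the 1 gene for which this library was low, at 1.30 FPKM.

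In the other 3 genes, BAPN replicate 3 stood apart. It was high for 3 liver transcripts, Alb at 22.9 FPKM, Hpx at 13.6 and Apoa2 at 11.4.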

How the results depend on the processing

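The comparison of Cilengitide with BAPN had 0 genes past the threshold in edgeR and under every alternative except DESeq2 (103 genes) and the fits that left out 1 library, which gave 0 to 8. The 8 were found without BAPN replicate 1 and 1 gene without Cilengitide replicate 2, and the cause was not tested. Of the 8, 1 was also among the 103 of DESeq2. The sign held under all alternatives for 123 of 127 named genes. Itgb1 turned to -0.0256 under limma on log2(FPKM + 1), -0.0257 on log2(FPKM + 0.1), -0.0472 after quantile normalisation, -0.0035 with an FPKM minimum of 5, -0.0727 with the replicate block, and -0.0700 for replicates 1 to 3 with no block, which is the same fit as leaving out BAPN replicate 4. Leaving out 1 library gave Itgb1 values of -0.0700 to 0.0779, below 0 without BAPN replicate 4 or Cilengitide replicate 2 or 3. Acta2 turned to 0.25 after quantile normalisation, Itgb3 to 0.0468 on the TPM scale and Mmp11 to -0.0319 without Cilengitide replicate 1 (up to 0.381 without replicate 3). Of 54 list medians, 12 moved by more than the spread between libraries when 1 library was left out.

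Replicate numbers 1 to 3 are shared by the groups, and the main fit did not treat them as pairs. Same-numbered libraries correlated at 0.27, 0.03 and 0.22 in their deviations from the group means. The highest correlation of the same BAPN libraries with another number was -0.01, 0.12 and -0.02. Numbers 1 and 3 thus correlated best with their own number and number 2 did not, so whether the numbers pair the samples is not settled. The replicate block gave 0 calls and 2285 genes at an unadjusted p under 0.05, against 1414 for the same 6 libraries with no block.

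The alternatives for SB273005 and the fit without the block were chosen after seeing the data. The 10 calls of SB273005 against BAPN became 0 with only those groups and 388 with DESeq2, and 0 to 77 with 1 library left out (62 without BAPN replicate 1, 77 without SB273005 replicate 4). The 0 calls between the compounds became 19 with DESeq2 and 0 to 13 with 1 library left out (1 without Cilengitide replicate 2, 13 without SB273005 replicate 4).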
